A study of Mus musculus with 12 samples.

Results

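Coagulation and fibrinolysis genes were followed through intracerebral hemorrhage (ICH) in young and aged mice. The 9 genes were *Serpine2*, *Plat*, *Plau*, *Plaur*, *F3*, *Thbd*, *F2r*, *Tfpi* and *F13a1*, taken by symbol from the 54833 genes of the table, and all 9 passed the filter on low counts. RNA-seq was performed on 12 samples of caudate putamen, with 3 for each age and surgery, called young sham, aged sham, young ICH and aged ICH. All mice were male and wild type, of the C57BL/6 strain, young animals being 8 to 10 weeks and aged animals 20 to 22 months old. ICH was produced with type IV collagenase, an enzyme that breaks down vessel walls and so lets blood enter the tissue, while sham animals received surgery without it. Tissue beside the hematoma was taken 24 h later from brains perfused with saline, and the matching region was taken from sham animals. Each sample was a pool of several mice, so the spread between samples was a spread between pools.

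Clotting begins when blood meets tissue factor, encoded by *F3*, which with factor VII starts the cascade that ends in thrombin. Thrombin turns fibrinogen into fibrin, which factor XIII crosslinks, and it signals to cells through protease-activated receptors such as the one encoded by *F2r*. Tissue factor pathway inhibitor and thrombomodulin restrain the cascade, whereas the plasminogen activators encoded by *Plat* and *Plau* produce plasmin, which dissolves fibrin. In brain, tissue factor is known from astrocytes, and collagenase-induced bleeding brings blood proteins into contact with this tissue.

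Of the 9 genes, 3 were upregulated DEGs after ICH at both ages, namely *F13a1*, *Plaur* and *Thbd*. A DEG had FC > 1.5 or < 0.67 with an unadjusted *P* under 0.05 in edgeR's quasi-likelihood test, and adjusted *P* below is that test's Benjamini-Hochberg value over the 21495 genes tested. *F13a1* rose most in young mice, with a log2FC of 2.34 ± 0.38 (SE), and *Plaur* most in aged mice, with a log2FC of 1.86 ± 0.27. *Plat*, *F3* and *Tfpi* were 1.39 to 1.47 times as high in young ICH as in young sham, with adjusted *P* under 0.05 but below the fold change of a DEG. *Serpine2* and *F2r* were DEGs at neither age in this fit, and *Plau* was one only by the unadjusted *P* in aged mice.

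The sequences before the transcription start are shown for *Plaur* and *F13a1*, the members that moved most. RefSeq promoters on GRCm38.p6 were found for 6 of the 9 genes, and among the 3 that were DEGs at both ages for these 2. Capitals mark matches on either strand to 4 short motifs, and positions count bases upstream of the start. The AP-1 motif was written TGANTCA. The GC box was written GGGCGG. The PU.1 motif was written GAGGAA and the TATA box by its core, TATAAA. The *Plaur* window lies at chr7:24462233-24462482 on the plus strand and the *F13a1* window at chr13:37050245-37050494 on the minus strand.
Plaur: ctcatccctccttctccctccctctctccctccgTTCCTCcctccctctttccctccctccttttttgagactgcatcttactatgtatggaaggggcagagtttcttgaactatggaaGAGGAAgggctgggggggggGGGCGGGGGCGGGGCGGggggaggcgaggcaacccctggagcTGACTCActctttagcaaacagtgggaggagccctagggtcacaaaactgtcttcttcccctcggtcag
F13a1: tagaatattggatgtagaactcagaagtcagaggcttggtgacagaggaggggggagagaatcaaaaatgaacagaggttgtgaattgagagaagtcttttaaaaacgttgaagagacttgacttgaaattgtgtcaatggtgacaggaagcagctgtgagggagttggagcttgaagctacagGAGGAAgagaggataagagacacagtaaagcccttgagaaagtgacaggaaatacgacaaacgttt

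The *Plaur* window held 1 AP-1 match starting at −69, 3 GC box matches starting at −111, −105 and −100, which share bases in part, and 2 PU.1 matches starting at −216 and −131. The *F13a1* window held 1 PU.1 match, starting at −66, and none of the other letters. Neither window held TATAAA. Of 32851 promoter windows of 250 bases, 6.75% held the AP-1 letters, 32.7% a GC box, 12.4% TATAAA and 23.3% the PU.1 letters. These matches describe letters only, and binding was not measured.

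The depth was 28410896 to 37785160 counts per library. In levels per transcript length, *F3* and *Serpine2* were highest, with a mean FPKM over the 12 libraries of 19.4 (range 13.3 to 24.5) and 19.3 (range 16.4 to 23.2), and these ranges overlapped. *Plat* followed with 5.92 and *Thbd* with 5.66, while *Plaur* (2.46), *F2r* (2.23), *Plau* (2.20), *F13a1* (1.62) and *Tfpi* (1.20) were lower. Counts per library ran from 52 for *Plaur* to 6861 for *Serpine2*. Values between samples are given below as CPM scaled by TMM.

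Several ICH libraries stood apart in their tissue content. Choroid plexus markers summed to 4047 CPM in young ICH 3, 1547 in aged ICH 1 and 1967 in aged ICH 2, against 12.2 to 486 in the other 9 libraries. Striatal projection neuron markers summed to 321 CPM in young ICH 2, 224 in aged ICH 1 and 533 in aged ICH 3, against 784 to 1864 elsewhere, and none of these 6 genes was at 0 in any group. Counts of DEGs or log2FC of the 9 genes, and counts over all the wider pathway genes after ICH, are therefore also given without certain libraries. These are the 3 libraries highest in choroid plexus markers and, separately, the 3 lowest in striatal markers, which leaves 2 young ICH and 1 aged ICH libraries each time. In bulk tissue, fewer cells of a type and less RNA per cell cannot be told apart.

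**Figure D1:**
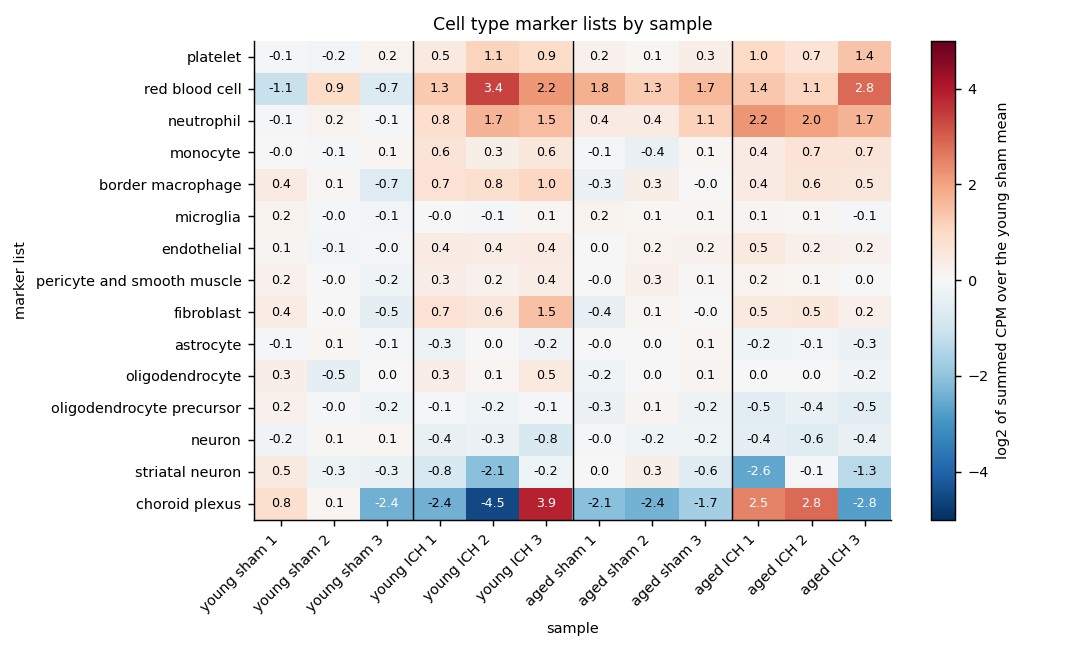
Log2 of the summed CPM of each marker list (rows) in each of the 12 samples (columns), relative to the young sham mean, with values printed in the cells. Choroid plexus markers are high in young ICH 3, aged ICH 1 and aged ICH 2, and neutrophil and platelet markers are higher in all 6 ICH samples than in the sham samples of the same age.

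In young ICH vs. young sham, 3 of the 9 genes were DEGs, all upregulated, against 12.2% of all genes tested and 8.66% upregulated. Adjusted *P* was under 0.05 for 6 of 9, all higher after ICH (*Plat*, *Plaur*, *F3*, *Thbd*, *Tfpi* and *F13a1*), against 19.1% of all genes and 9.89% higher. These 6 also had no overlap between the groups, a separation found in 35.0% of all genes. The median log2FC was 0.55 for the 9 genes and 0.02 over all genes tested. Without the choroid-rich libraries 3 of 9 were DEGs (*Plaur*, *F13a1* and *F2r*, while *Thbd* was not), against 2523 of 22844 genes tested in that fit. Adjusted *P* was under 0.05 there for 5 of the 9. Without the libraries low in striatal markers both counts were 5, and 3222 of 22890 genes tested in that fit were DEGs. The 5 DEGs were *Plaur*, *F13a1*, *Thbd*, *F3* and *F2r*.

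In aged ICH vs. aged sham, 4 of the 9 genes were DEGs, all upregulated (*Plau*, *Plaur*, *Thbd* and *F13a1*), against 10.1% of all genes and 7.24% upregulated. Adjusted *P* was under 0.05 for 4 (*Plat*, *Plaur*, *Thbd* and *F13a1*), against 13.2% of all genes and 7.0% higher. The groups did not overlap for 5 of 9, all higher after ICH, against 35.1% of all genes. The median log2FC was 0.50 for the 9 genes and 0.00 over all genes. Without the choroid-rich libraries the log2FC was 1.89 for *Plaur*, 0.82 for *Thbd* and 2.04 for *F13a1*. Without those low in striatal markers it was 1.79, 0.63 and 1.42. A single aged ICH library was left each time, so the spread within that group could not be seen. The number of genes with an adjusted *P* under 0.05 was 2 without aged sham 1.

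**Figure D2:**
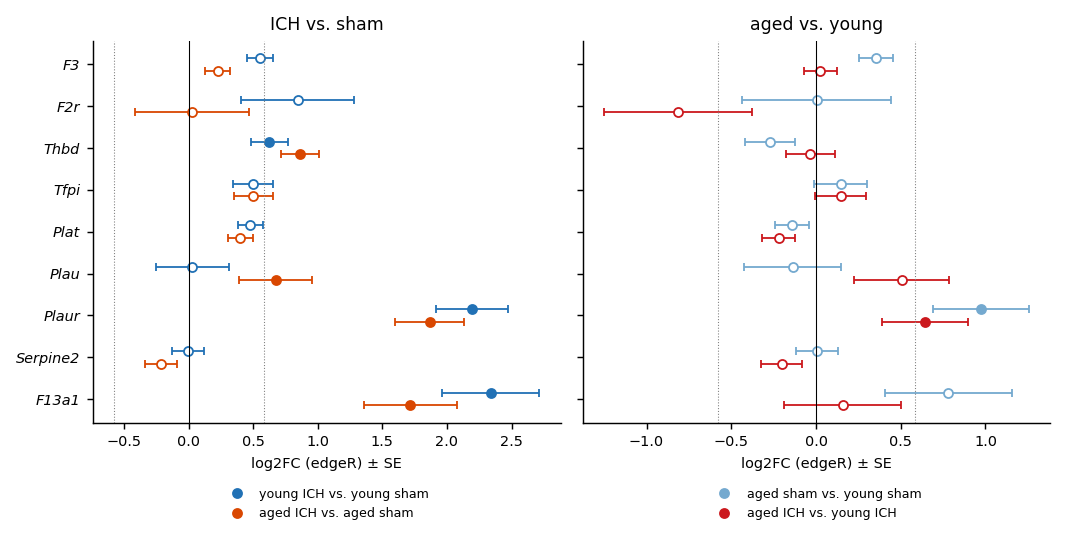
Log2FC with its SE (edgeR) of each gene, for ICH vs. sham at both ages (left) and aged vs. young in sham and in ICH mice (right). Filled points are DEGs, and dotted lines mark the fold change thresholds. *F13a1* and *Plaur* lie farthest to the right after ICH, and in the comparisons of age only *Plaur* is a DEG.

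*F3*, encoding tissue factor, the cell-surface trigger of clotting, lies at chr3:121723537-121735048 on the plus strand. Its CPM were 39.0, 37.5 and 35.0 in young sham, 56.2, 47.6 and 59.8 in young ICH, 42.6, 53.3 and 46.7 in aged sham and 57.3, 56.8 and 52.4 in aged ICH. All young ICH samples lay above all young sham samples, whereas aged ICH and aged sham overlapped. The log2FC was 0.55 ± 0.10 in young mice (adjusted *P* = 0.0041) and 0.22 ± 0.10 in aged mice (adjusted *P* = 0.16), and neither reached the FC of a DEG. The young value passed as a DEG in 4 of 20 alternative settings. It did so without young sham 1 (0.59), without young ICH 2 (0.65) and without the libraries low in striatal markers (0.65). The last was limma on log2(FPKM + 1) (0.60). Every aged sham sample was above every young sham sample, with a log2FC of 0.35 ± 0.10 (adjusted *P* = 0.22), and the aged and young ICH groups overlapped at a log2FC of 0.03 ± 0.10. Summed astrocyte markers overlapped between young sham (4383 to 4952 CPM) and young ICH (3846 to 4630 CPM), with 2 of the 7 markers upregulated DEGs. In aged mice the sums were lower after ICH without overlap, at 3743 to 4207 CPM against 4463 to 4854 in aged sham, and 0 of the 7 were DEGs. Most single markers did not follow the sums. A log2FC above 0 was found for 5 of the 7 in young mice (median 0.24) and for 4 of the 7 in aged mice (median 0.05). Their part in the *F3* values was not tested.

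*Tfpi*, the inhibitor of the tissue factor and factor VII complex, lies at chr2:84432855-84476775 on the minus strand. It had 5.64, 4.60 and 5.15 CPM in young sham, 7.20, 6.92 and 7.63 in young ICH, 4.57, 5.43 and 7.01 in aged sham and 8.73, 7.55 and 7.79 in aged ICH. Every ICH sample was above every sham sample of the same age. The log2FC was 0.50 ± 0.15 at both ages, with an adjusted *P* of 0.042 in young and 0.051 in aged mice, which is a fold change of 1.41 in each. Without aged sham 3, the sham sample with the highest value, the aged log2FC was 0.68 and *Tfpi* became a DEG.

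*Thbd*, encoding thrombomodulin, the endothelial receptor that turns thrombin toward activating protein C, lies at chr2:148404466-148408188 on the minus strand. Young sham samples held 17.9, 17.6 and 16.0 CPM and young ICH samples 21.1, 27.4 and 30.9. Aged sham samples held 14.7, 13.2 and 14.8 CPM and aged ICH samples 30.8, 21.8 and 24.9. Sham and ICH samples were separate at both ages, and all aged sham samples lay below all young sham samples. *Thbd* rose by a log2FC of 0.63 ± 0.15 in young mice (adjusted *P* = 0.013) and 0.86 ± 0.15 in aged mice (adjusted *P* = 0.0062). The young value was close to the FC threshold, so that it was no longer a DEG without young ICH 3 or without the choroid-rich libraries (0.50 each) or without young sham 3 (0.58). Summed endothelial markers were higher beside it, at 399 to 416 CPM in young ICH against 285 to 343 in young sham, with 4 of 7 markers upregulated DEGs. In aged mice they were at 364 to 440 CPM after ICH against 311 to 359 after sham surgery, with 2 of 7 markers upregulated. Their part in the *Thbd* result was not tested.

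*F2r*, encoding protease-activated receptor 1, the main thrombin receptor of many cells, lies at chr13:95601803-95618487 on the minus strand. Its CPM were 7.96, 5.46 and 5.02 in young sham, 20.4, 5.96 and 6.74 in young ICH, 4.63, 6.91 and 6.95 in aged sham and 7.44, 7.72 and 3.68 in aged ICH. Young ICH 1 alone was high, and the 4 groups overlapped otherwise. The log2FC was 0.84 ± 0.44 in young mice (adjusted *P* = 0.20) and 0.03 ± 0.44 in aged mice, and the young value was 0.04 without young ICH 1. It passed as a DEG in 6 of 20 alternative settings, all of which kept that library, among them DESeq2 (0.84), no filter on low counts (0.85), and the fits without the choroid-rich libraries (1.10) and without those low in striatal markers (1.14). That library was more than 2-fold above each of the other 11 for 55 of 21495 genes. Among them were *Prkcd* (302 against at most 104 CPM) and *Tcf7l2* (82.3 against at most 26.9), which are known from thalamus. They also held *Ms4a4b* (5.48 against at most 1.15 CPM) and *Cd8a* (3.28 against at most 0.563). These genes were chosen after their values were seen. Their part in the *F2r* value was not tested.

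**Figure D3:**
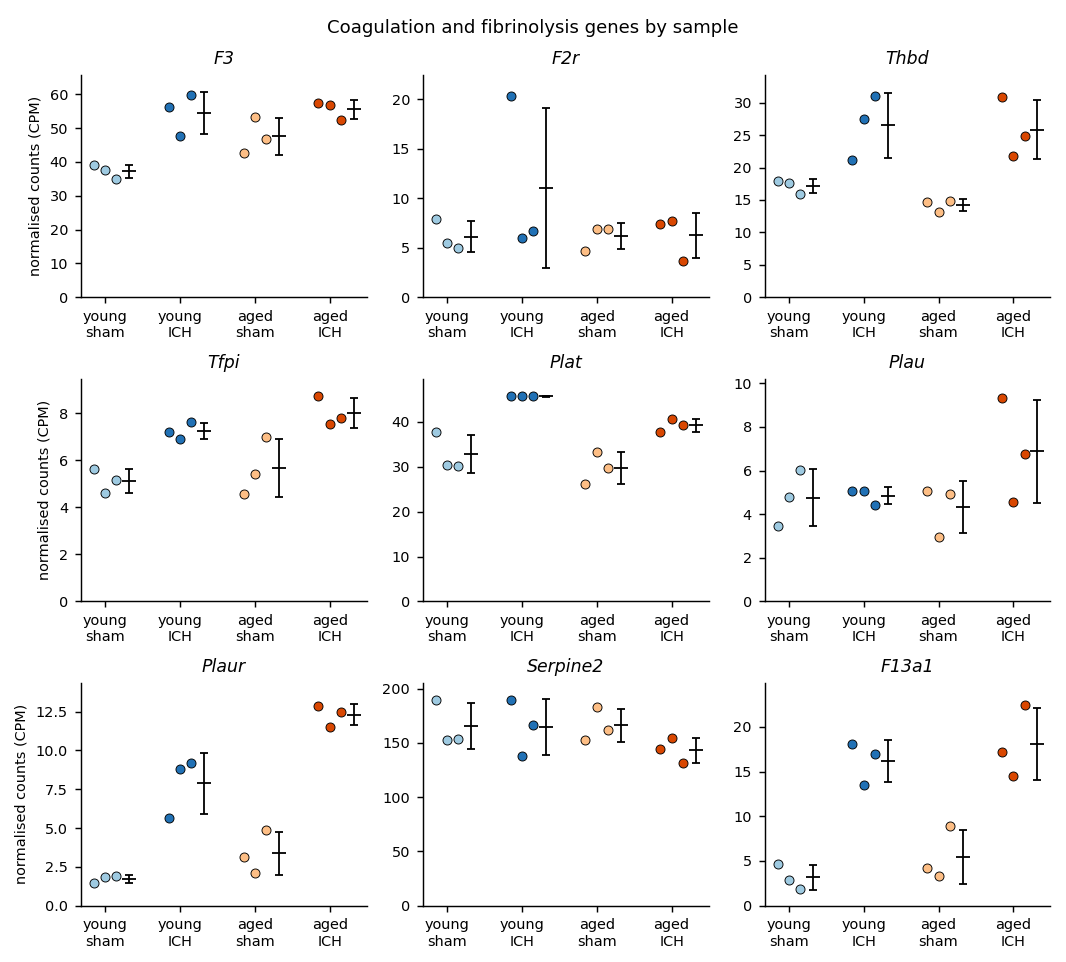
Normalised counts (CPM, TMM) of the 9 genes in each of the 12 samples (points), with the group mean and SD (bars, n = 3). *Plaur*, *Thbd*, *Tfpi*, *Plat* and *F13a1* are higher in every ICH sample than in every sham sample of the same age, and *F2r* is high in young ICH 1 only.

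*Plat*, encoding tissue-type plasminogen activator, lies at chr8:22757727-22782844 on the plus strand. Young sham samples had 37.7, 30.4 and 30.2 CPM, young ICH samples 45.6, 45.6 and 45.8, aged sham samples 26.1, 33.3 and 29.7, and aged ICH samples 37.7, 40.6 and 39.2. Sham and ICH were separate at both ages, and aged ICH lay below young ICH. The log2FC after ICH was 0.48 ± 0.10 in young (adjusted *P* = 0.0078) and 0.40 ± 0.10 in aged mice (adjusted *P* = 0.024). Between the ICH groups the log2FC of aged vs. young was −0.22 ± 0.10 (adjusted *P* = 0.52).

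*Plau*, encoding urokinase, the activator that works at the cell surface, lies at chr14:20836660-20843385 on the plus strand. It had 3.45, 4.79 and 6.04 CPM in young sham, 5.08, 5.06 and 4.41 in young ICH, 5.06, 2.93 and 4.94 in aged sham and 9.31, 4.57 and 6.76 in aged ICH. Aged ICH 1 and aged ICH 3 were above all other samples, while aged ICH 2 lay within the sham range. The log2FC was 0.03 ± 0.28 in young and 0.67 ± 0.28 in aged mice (adjusted *P* = 0.14). In aged mice it was no longer a DEG in 7 of 20 alternative settings. The log2FC was 0.39 without aged ICH 1, 0.46 without aged sham 2 and 0.69 without aged ICH 3. It was 0.68 with only the 2 groups compared and 0.50 with limma on log2(FPKM + 1). It was 0.65 without the choroid-rich libraries and 0.10 without the 3 libraries low in striatal markers.

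*Plaur*, encoding the urokinase receptor, which many leukocytes and activated cells carry, lies at chr7:24462484-24475968 on the plus strand. Young sham samples had 1.44, 1.84 and 1.88 CPM and young ICH samples 5.63, 8.79 and 9.20. In aged mice the sham samples had 3.14, 2.09 and 4.85 CPM and the ICH samples 12.9, 11.5 and 12.5. The 4 groups formed an ascending order without overlap, young sham, aged sham, young ICH and aged ICH. Its log2FC after ICH was 2.20 ± 0.28 in young mice (adjusted *P* = 0.0014), a fold change of 4.58, and 1.86 ± 0.27 in aged mice (adjusted *P* = 0.0043), a fold change of 3.64.

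By age, *Plaur* was a DEG with a log2FC of 0.97 ± 0.28 between the sham groups (adjusted *P* = 0.22) and 0.64 ± 0.26 between the ICH groups (adjusted *P* = 0.46). The latter was 0.45 without young ICH 1 and lost its call there, as it also did without aged ICH 1 or aged ICH 3, without the choroid-rich libraries (0.80), without those low in striatal markers (0.64) and with limma on log2(FPKM + 1) (0.55). Summed neutrophil markers were higher beside *Plaur*, at 19.5 to 35.5 CPM in young ICH against 10.1 to 12.5 in young sham, and at 35.9 to 50.2 CPM in aged ICH against 14.4 to 24.0 in aged sham. All 6 neutrophil markers tested were upregulated DEGs at both ages and 4 of 6 were higher DEGs in aged than in young sham mice. Their part in the *Plaur* values was not tested.

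*Serpine2*, encoding protease nexin-1, a brain inhibitor of thrombin and of the plasminogen activators, lies at chr1:79794197-79861180 on the minus strand. Its CPM were 190, 153 and 154 in young sham, 190, 138 and 166 in young ICH, 153, 183 and 162 in aged sham and 144, 154 and 131 in aged ICH. All groups overlapped with their neighbours in level. The log2FC was −0.01 ± 0.12 in young and −0.21 ± 0.12 in aged mice (adjusted *P* = 0.27). With 4146 to 6861 counts per library it was the most deeply counted member, and it varied least, with a root mean square of 0.16 log2 about its own mean over the 12 samples, against 1.13 for *Plaur* and 1.17 for *F13a1*.

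*F13a1*, encoding the A subunit of factor XIII, the transglutaminase that crosslinks fibrin and that is known from platelets, monocytes and macrophages, lies at chr13:36867178-37050244 on the minus strand. Young sham samples had 4.70, 2.92 and 1.91 CPM and young ICH samples 18.1, 13.5 and 17.0. Aged sham samples had 4.17, 3.34 and 8.92 CPM and aged ICH samples 17.2, 14.5 and 22.5. Every ICH sample was above every sham sample, and aged sham 3 was the highest of the 6 sham samples. The log2FC was 2.34 ± 0.38 in young (adjusted *P* = 0.0027), a fold change of 5.06, and 1.72 ± 0.36 in aged mice (adjusted *P* = 0.013), a fold change of 3.29. Between sham groups the log2FC of aged vs. young was 0.78 ± 0.38 (adjusted *P* = 0.42). It was 0.23 without aged sham 3, and it passed as a DEG in 5 of 20 alternative settings, which were DESeq2 (0.78), no filter (0.78), and the fits without young sham 1 (1.18), aged sham 1 (0.94) or aged sham 2 (1.04). Genes *Gm49144* and *Gm30489* lie antisense to it, and without a stated strand setting their reads cannot be told apart from its own.

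Markers of cells known to carry *F13a1* had higher sums after ICH at both ages, as had endothelial and fibroblast markers. Border macrophage markers summed to 8.12 to 16.9 CPM in young sham and 21.3 to 26.4 in young ICH, with 4 of 6 upregulated DEGs. In aged mice they summed to 10.6 to 15.7 CPM after sham surgery and 16.8 to 19.2 after ICH, with 3 of 6 upregulated and 1 downregulated. Monocyte markers summed to 35.5 to 40.0 CPM in young sham and 46.2 to 57.7 in young ICH, against 29.1 to 39.4 in aged sham and 50.1 to 59.5 in aged ICH, with 3 of 5 upregulated DEGs at each age. Platelet markers summed to 3.39 to 4.29 CPM in young sham and 5.37 to 8.15 in young ICH, against 4.05 to 4.70 in aged sham and 6.13 to 10.1 in aged ICH, with 2 of 3 tested markers upregulated DEGs at each age. Of the 7 platelet genes listed, *Gp1bb* and *Gp6* were at 0 in both young groups, *Gp1bb* in aged sham, and none in aged ICH. The part of these cells in the *F13a1* result was not tested.

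The comparisons of age asked whether these genes differ between aged and young mice without and with hemorrhage. In aged sham vs. young sham, 1 of 9 genes was a DEG (*Plaur*, upregulated), against 3.72% of all genes, and none had an adjusted *P* under 0.05 in edgeR, against 0.102%. Unadjusted *P* was under 0.05 for 2 genes, and the groups did not overlap for 3 (*Plaur* and *F3* higher, *Thbd* lower), against 21.0% of all genes. In aged ICH vs. young ICH, 1 of 9 was a DEG (*Plaur*, upregulated), against 3.52%, with none at an adjusted *P* under 0.05, against 0.0558%. Here too unadjusted *P* was under 0.05 for 2 genes, and 2 did not overlap (*Plaur* higher, *Plat* lower), against 13.3%. Between sham groups *Plaur* remained the 1 DEG without the choroid-rich libraries, against 866 of 22844 genes tested in that fit. It was again the 1 DEG without those low in striatal markers, against 835 of 22890 genes. Between ICH groups 1 aged ICH library was left each time. There the log2FC without the choroid-rich libraries was −1.84 for *F2r* and 0.80 for *Plaur*. Without those low in striatal markers it was −0.81 and 0.64. These comparisons share their samples with the comparisons of ICH and sham.

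The ICH response was then compared between ages by the age-ICH interaction, the log2FC in aged mice minus that in young mice. None of the 9 genes passed as a DEG, against 1.56% of all genes, and no gene of the table had an adjusted *P* under 0.05 (0.0%). The difference for *F2r* was −1.84 without the choroid-rich libraries and −0.81 without those low in striatal markers. Each of these fits kept 1 aged ICH library. Unadjusted *P* was under 0.05 for 1 member, *F3*, with a difference of −0.33 ± 0.14 (adjusted *P* = 1.0). The difference was −0.62 ± 0.51 for *F13a1*, −0.33 ± 0.38 for *Plaur*, 0.24 ± 0.21 for *Thbd*, 0.64 ± 0.40 for *Plau* and −0.82 ± 0.62 for *F2r*. It was −0.08 ± 0.14 for *Plat*, 0.00 ± 0.22 for *Tfpi* and −0.21 ± 0.17 for *Serpine2*.

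The wider coagulation and plasminogen systems were followed through 41 further genes, of which 27 could be tested. In young ICH vs. young sham, 11 were upregulated, against 8.66% of all genes, and 1 was a downregulated DEG. In aged ICH vs. aged sham, 10 were upregulated, against 7.24% of all genes, and 0 downregulated. The median log2FC of the 27 was 0.87 in young and 0.73 in aged mice, against 0.02 and 0.00 over all genes. In young mice the same 11 genes were upregulated DEGs without the choroid-rich libraries and without those low in striatal markers. In aged mice the same 10 were upregulated without the choroid-rich libraries. Without those low in striatal markers *F7*, *F10*, *Procr* and *Tfpi2* lost their call, while *Cpb2*, *F5*, *Kng2* and *Serpina10*, named for this change, gained one. *Cpb2* was not among the 27. It had 10 counts in aged ICH 2, the only aged ICH library left there, against 2 to 5 in the other libraries. In aged mice 9 of the 27 had an adjusted *P* under 0.05, all higher, against 7.0% of all genes. Fewer did without either set of libraries, where 1 aged ICH library was left each time.

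**Figure D4:**
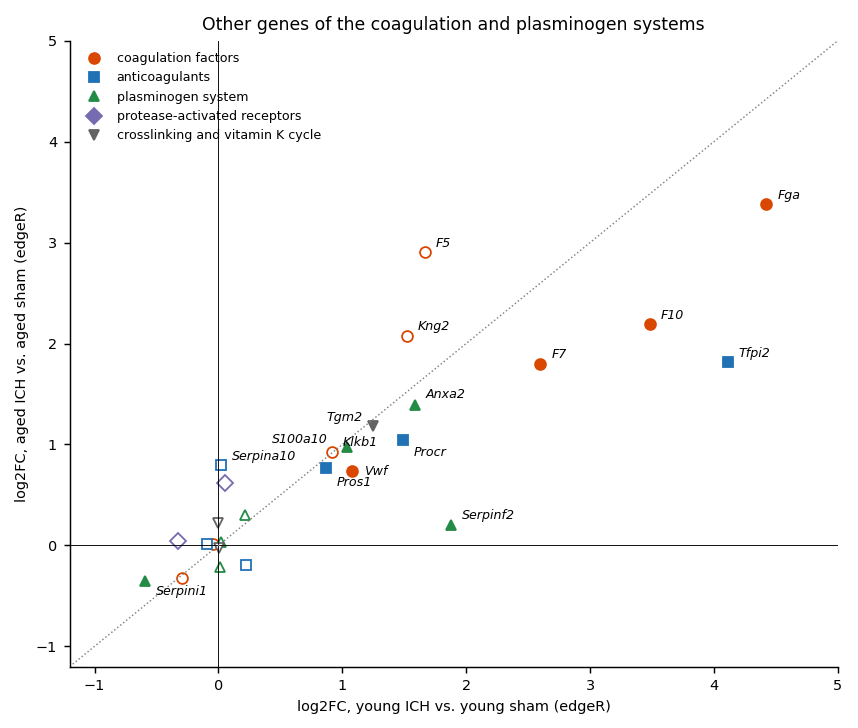
Log2FC (edgeR) after ICH in young mice (horizontal) and aged mice (vertical) for the 27 tested genes of the wider coagulation and plasminogen systems, by list. Filled symbols are DEGs in at least 1 age, and the dotted line marks equal values. *Fga*, *F10* and *Tfpi2* are farthest from 0, and *Serpinf2* lies near 0 in aged mice only.

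Among inhibitors and receptors of the plasminogen system, 3 of 7 tested genes were upregulated and 1 was a downregulated DEG in young mice, and 2 were upregulated in aged mice. Beside this and the list counts after ICH below stand 8.66% of all genes upregulated in young and 7.24% in aged mice. *Anxa2* and *S100a10*, whose products form the annexin A2 complex that binds plasminogen and tissue-type plasminogen activator on cells, rose together. *Anxa2* had a log2FC of 1.58 ± 0.23 in young and 1.39 ± 0.23 in aged mice, and *S100a10* of 1.04 ± 0.16 and 0.98 ± 0.16, with an adjusted *P* of at most 0.0056 in all 4 cases. *Serpinf2*, encoding the plasmin inhibitor alpha-2-antiplasmin, had 0.414, 0.476 and 0.627 CPM in young sham, 2.35, 1.56 and 1.64 in young ICH, 0.960, 0.742 and 1.11 in aged sham and 1.12, 1.39 and 0.754 in aged ICH. It rose in young mice (log2FC 1.87 ± 0.29, adjusted *P* = 0.0024), and in aged mice the log2FC was 0.21 ± 0.28. *Serpini1*, encoding the neuronal inhibitor neuroserpin, was the downregulated gene in young mice, at a log2FC of −0.59 ± 0.14 (adjusted *P* = 0.015). The young value lay close to the FC threshold and ran from −0.76 to −0.44 in 20 settings. Its call was lost without young sham 3, without young ICH 3, without the choroid-rich libraries and with limma. In aged mice the log2FC of *Serpini1* was −0.35 ± 0.14 (adjusted *P* = 0.13), and every aged ICH sample lay below every aged sham sample. Summed neuron markers were lower beside it, at 3086 to 4326 CPM in young ICH against 4598 to 5612 in young sham, with 1 of 3 a downregulated DEG. In aged mice these sums were 3444 to 4078 CPM after ICH against 4463 to 5084 after sham surgery, with 0 of 3 a DEG. The part of neuron content in the *Serpini1* values was not tested.

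Of the coagulation factors, 4 of 9 tested genes were upregulated DEGs at each age and 0 were downregulated. *Vwf*, encoding von Willebrand factor of endothelium, rose from 47.9 to 67.8 CPM in young sham to 112 to 119 in young ICH, and from 72.6 to 98.3 in aged sham to 126 to 152 in aged ICH. The log2FC of *Vwf* was 1.08 ± 0.15 in young (adjusted *P* = 0.0017) and 0.73 ± 0.14 in aged mice (adjusted *P* = 0.010), beside the endothelial marker sums given above. *F10*, encoding factor X, which is joined by factor V in making thrombin, had 4, 12 and 14 counts in young sham and 98, 103 and 135 in young ICH, and 65, 2 and 59 in aged sham and 225, 136 and 237 in aged ICH. Its log2FC was 3.48 ± 0.74 in young (adjusted *P* = 0.0089) and 2.19 ± 0.63 in aged mice (adjusted *P* = 0.041). *F7*, encoding factor VII, the partner of tissue factor, had 2 to 20 counts in the sham libraries and 28 to 70 in the ICH libraries, with a log2FC of 2.60 ± 0.54 in young and 1.80 ± 0.48 in aged mice.

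*Fga*, encoding the fibrinogen alpha chain, had 0, 1 and 5 counts in young sham, 20, 103 and 8 in young ICH, 5, 0 and 4 in aged sham and 35, 29 and 37 in aged ICH. Young ICH 2 was the highest, and the other chains did not follow. *Fgg* had at most 2 counts in any library. *Fgb* had 0, and 0 counts allow up to 0.106 CPM at the lowest depth. The fitted log2FC of *Fga* was 4.42 ± 1.12 in young (adjusted *P* = 0.019) and 3.38 ± 1.07 in aged mice (adjusted *P* = 0.058), and both calls were lost with limma on log2(FPKM + 1), which gives low genes a smaller fold change. *F5*, encoding factor V, was not a DEG in this fit. Its counts were 2168 in young ICH 3, 885 in aged ICH 1 and 803 in aged ICH 2, the libraries richest in choroid plexus markers, against 33 to 473 elsewhere. In aged mice its log2FC was 2.91 ± 1.44 and ran from −1.17 to 3.54 over 20 alternative settings. It stayed without a call in 12 of the 20 and became a DEG in the others, among them DESeq2 and no filter on low counts.

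Among anticoagulants, 3 of 6 tested genes were upregulated DEGs at each age. *Pros1*, encoding protein S, the cofactor of activated protein C, rose from 26.2 to 31.3 CPM in young sham to 47.6 to 60.1 in young ICH, and from 23.9 to 37.5 in aged sham to 50.8 to 59.5 in aged ICH. The log2FC of *Pros1* was 0.87 ± 0.15 in young (adjusted *P* = 0.0038) and 0.77 ± 0.15 in aged mice (adjusted *P* = 0.010). *Procr*, encoding the endothelial protein C receptor, which works beside thrombomodulin, had a log2FC of 1.49 ± 0.30 and 1.04 ± 0.30. *Tfpi2*, encoding a relative of tissue factor pathway inhibitor, had 0 to 8 counts in the sham libraries and 18 to 49 in the ICH libraries, with a log2FC of 4.11 ± 0.66 in young and 1.82 ± 0.56 in aged mice. Without the 3 libraries low in striatal markers, *F7*, *F10*, *Procr* and *Tfpi2* were no longer DEGs in aged mice.

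Of the 2 other protease-activated receptors tested, *F2rl2* and *F2rl3*, 0 were DEGs in either ICH comparison at an unadjusted *P* under 0.05. Of 3 genes for crosslinking and the vitamin K cycle, 1 was an upregulated DEG at each age, *Tgm2*, encoding the tissue transglutaminase related to factor XIII. *Tgm2* had 17.7 to 20.8 CPM in young sham and 40.4 to 57.5 in young ICH. The aged ICH samples had 44.6 to 54.6 CPM against 17.4 to 26.5 in aged sham. Its log2FC was 1.25 ± 0.16 in young (adjusted *P* = 0.0015) and 1.18 ± 0.16 in aged mice (adjusted *P* = 0.0039). In aged vs. young sham, 2 of the 27 genes were DEGs, both higher, against 3.72% of all genes. They were *F10* at a log2FC of 2.09 ± 0.77 (adjusted *P* = 0.31) and *Serpinf2* at 0.89 ± 0.30 (adjusted *P* = 0.28). The *F10* value ran from 0.37 to 2.64 over 20 alternative settings and lost its call in 5, among them those without aged sham 1 or aged sham 3. In aged vs. young ICH 0 were higher and 1 was lower, against 3.52% of all genes. The lower gene was *Serpinf2*, at −0.77 ± 0.27 (adjusted *P* = 0.40), a call lost in 4 of 20 settings.

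For each member that was a DEG after ICH, the genes closest in pattern were those with the smallest root mean square difference of gene-centred log2 CPM over the 12 samples. For *F13a1* they were *Ms4a4a* (0.23), *Spp1* (0.32) and *Nos2* (0.35), and for *Plaur* *Adamts9* (0.20), *Nes* (0.23) and *Cyr61* (0.23). *Thbd* was closest to *Tuba1c* (0.12), *Ccnd1* (0.14) and *Plp2* (0.14), and *Plau* to *Herc6* (0.17), *Vmn2r85* (0.19) and *Cmpk2* (0.19). For scale, the member's own root mean square about its mean was 1.13 for *Plaur*, 1.17 for *F13a1*, 0.41 for *Thbd* and 0.40 for *Plau*. The genes were picked for the smallest differences among all genes tested. That these differences were smaller follows from the choice and is no evidence of a shared pattern. Both genes of a pair were read from the same 12 libraries.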

How the data were processed

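RNA-seq counts and FPKM of 12 samples (3 pools of mice per group) were analysed. The authors aligned paired reads from NEBNext Ultra libraries to GRCm38.p6 with HISAT2, counted them per Ensembl gene with featureCounts, and deposited raw counts together with FPKM, which are scaled to transcript length and mapped fragments. Strand and multimapping settings are not given in the sources used here. The labels gave each sample's age, surgery and replicate number, and 0 columns were left unassigned. Positions are from GENCODE vM21 (GRCm38).

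Counts were tested with edgeR 4.0.16 (limma 3.58.1, R 4.3.3): TMM, filterByExpr with a minimum count of 10 (21495 of 54833 genes kept), 4 groups in one quasi-likelihood fit. SE was |log2FC| divided by the square root of F. Log2 CPM used a prior count of 2. DEG thresholds follow the study's methods. The 12 libraries held 28410896 to 37785160 counts, and *P* measures the spread between pools. The test was checked on simulated counts. The replicate numbers were checked for pairing and did not pair the samples.

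The members and lists were chosen with earlier results of these data known, and 1 gene of the pathway lists is not reported here. Named genes were all 9 members, up to 4 genes per pathway list that were DEGs after ICH, by smallest *P*, and the 3 genes closest in pattern to each member that was such a DEG. Genes named outside this rule are said to be so, or stand where a count needed them (*F5*, *Fgb*, *Fgg*, *F2rl2*, *F2rl3*, *Cpb2*, *Kng2*, *Serpina10* and markers at 0). Alternatives were RLE, no filter, DESeq2 1.42.0, limma on log2(FPKM + 1), the compared groups alone, adjusted *P* as the call, a replicate block and leaving out each library. Those leaving out libraries by marker content were added after seeing the data.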

Additional observations from a re-analysis of the deposited data

Results flagged for a closer look

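The interaction term of edgeR gave an unadjusted *P* under 0.05 for 3 of the named genes. The ICH response of each was smaller in aged mice, and each had an adjusted *P* of 1.0. The pathway genes had been named for their calls after ICH in these same libraries. Over all genes 1.56% passed the DEG thresholds for the interaction, and 0.0% had an adjusted *P* under 0.05. The difference, aged minus young log2FC, was −0.33 for *F3*, −1.67 for *Serpinf2* and −2.30 for *Tfpi2*. *Serpinf2* kept its call in 18 of 19 alternative settings and *Tfpi2*, with 0 to 49 counts per library, in 11 of 19. The cause of the lost calls was not tested. For *F3* the difference ran from −0.41 to −0.24 over the alternatives. Groups of 3 samples were too small to test for outlying samples.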

How the results depend on the processing

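Of 891 recomputed log2FC of the 9 genes, 804 kept direction and call, 24 gained a call, 17 lost it and 46 changed sign. No called value changed sign, and the largest reported value that did was 0.51 (*Plau*, aged vs. young ICH). Scaling moved the median of all genes by less than 0.1. Where an adjusted *P* under 0.05 was the call, 6 of 9 genes passed in young ICH vs. young sham and 0 in each comparison of age. In aged sham vs. young sham the number of DEGs was 2 without a filter and with DESeq2 and 0 with limma on log2(FPKM + 1). In aged ICH vs. young ICH it was 2 without a filter, 0 with limma and 0 without the libraries low in striatal markers. Without those libraries it was 5 in young ICH vs. young sham, and without the choroid-rich libraries the interaction gave 1. The number with an adjusted *P* under 0.05 in aged ICH vs. aged sham was 2 without the choroid-rich libraries and 0 without those low in striatal markers, where 1 aged ICH library was left and assumed to vary like the other groups.

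Leaving out single libraries gave 2 to 5 DEGs in young ICH vs. young sham, 1 to 2 in aged vs. young sham, 0 to 2 in aged vs. young ICH and 0 to 1 for the interaction, and 2 to 4 genes with an adjusted *P* under 0.05 in aged ICH vs. aged sham.

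The changes of sign were these. For *Serpine2*, the young ICH log2FC was 0.11 without the libraries low in striatal markers and 0.074 with limma (single libraries left out, −0.12 to 0.11), and aged vs. young sham −0.0031 with RLE and with DESeq2 (−0.070 to 0.11). For *Plau* it ran from −0.16 to 0.24 in young ICH and from −0.33 to 0.074 between shams, and was −0.049 between ICH groups without the libraries low in striatal markers. For *F2r* in aged ICH it was −0.74 without the choroid-rich libraries (−0.15 to 0.30), and between shams −0.0049 with RLE, −0.0014 without a filter, −0.0035 with DESeq2, and −0.0015 and −0.0012 without the choroid-rich libraries and those low in striatal markers (−0.12 to 0.24). Between ICH groups, without the libraries low in striatal markers, *F3* was −0.023 (−0.062 to 0.10) and *F13a1* −0.26 (−0.028 to 0.29), and *Thbd* was 0.042 without the choroid-rich libraries (−0.18 to 0.092). *Tfpi* ran from −0.038 to 0.28 between shams. For the interaction, *Plaur* was 0.093 with limma (−0.58 to 0.034), *Tfpi* −0.11 without the libraries low in striatal markers (−0.13 to 0.18) and *Plat* ran from −0.19 to 0.012. The causes were not tested.

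The replicate numbers did not pair the samples, since same-numbered samples correlated at −0.45 to 0.23 over 18 pairs, 5 of them over 0.1, and 9 of 36 correlated best with their own number. With the replicate block, 3 and 4 genes were DEGs after ICH in young and aged mice, and *F2r* in aged ICH was −0.079.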
